A study of Homo sapiens with 2 samples.

Results

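ATP-dependent chromatin remodelling genes were followed in RNA that was recovered with an antibody against the RNA-binding protein QKI. They were the genes whose symbols begin with SMARCA to SMARCE, with ARID and a digit, or with INO80, together with CHD1 to CHD9. The choice was made by symbol and not by their values, though with earlier results of these data known. Of 18132 genes measured, 36 were members, read by 117 probe sets. The arrays were PrimeView arrays of SW480, a human colorectal cancer cell line, and each held the anti-QKI precipitate of 1 culture condition. In siNC the cells had received a negative control siRNA, and in siLnc an siRNA against the long noncoding RNA NONHSAT136151. Both groups received 100 pmol of siRNA and were collected at 48 h, and the labels name no other agent or genetic change. The comparison addresses which mRNAs were recovered with QKI in different amounts after NONHSAT136151 was silenced. With 1 array per group, no difference has a replicate check, no p-value is given, and the precision of each value is limited by that number.

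Chromatin remodellers use the energy of ATP hydrolysis to slide, evict or exchange nucleosomes, and so open or close DNA to other factors. Each is built around an ATPase motor of the SNF2 family and falls into 1 of the SWI/SNF, ISWI, CHD and INO80 families, in which further subunits target and regulate the motor. Subunits of SWI/SNF complexes are among the genes often mutated in human cancers, ARID1A in colorectal cancers included. QKI is a protein of the STAR family that binds mRNAs and regulates their splicing, stability and translation.

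The siRNAs are shown because they define the 2 groups. The study's siRNA list gives them as follows, with the letters as listed and no capitals.
si-NON-1: uaggcaugguuagcguggucggaautt
si-NC: ttcttacacaatagccagg
A further siRNA, si-NON-2, is listed with the same letters as si-NC, and the sample labels do not say which siRNA against NONHSAT136151 was used for the arrays.

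Values are the deposited log2 signals, the value of a gene is the mean over its probe sets, and a difference is the log2 signal of siLnc minus that of siNC. Probe sets of a gene read the same RNA and are not replicates, and signals of different genes are not compared. The median log2 signal of all probe sets was 3.32 on the siNC array and 3.29 on the siLnc array, and the median difference over all genes was -0.06. A log2 signal of 4.72 was taken as background, the 95th percentile on siNC of 138 probe sets of 53 genes of cell types that SW480 should lack. Of 12 markers of colon epithelium, 5 were above background on both arrays, among them EPCAM and KRT18, while CDH17 and VIL1 were below it. QKI mRNA had log2 signals of 6.66 in siNC and 6.09 in siLnc. All 18 probe sets of the bacterial hybridization controls were lower in siLnc, by differences from -1.30 to -0.20. Of 17 measured genes of glands and blood, a list chosen after the values were seen, 9 were higher in siLnc by 2-fold or more, and 0 were lower by as much. The number above background was 1 in siNC and 8 in siLnc, and their summed linear signal was 168 and 2163. BPIFA1, an airway secretory protein, had log2 signals of 3.26 and 10.09, and HTN1, a salivary protein, had 1.58 and 1.29. The part of these in the differences described here was not tested. Neither input RNA nor IgG precipitates were analysed here. Altered binding of an mRNA to QKI and an altered level of that mRNA in the cells therefore cannot be told apart.

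Most remodelling genes differed by less than 1.5-fold between the arrays, and 1 of them, CHD7, was at least 2-fold higher in siLnc. The median log2 difference of the 36 genes was 0.12, with quartiles of -0.06 and 0.26 and a range from -0.34 (SMARCD3) to 1.22 (CHD7). Of the 36 genes, 26 (72.2%) had a difference above 0, against 39.2% of all genes. A difference of 2-fold or more upwards was found in 2.78% of the members, that is in CHD7, and in 0.651% of all genes. None of the 36 genes was 2-fold lower, against 0.121% of all genes. At 1.5-fold, SMARCA5 and CHD1 joined CHD7, so that 3 of 36 members were higher, against 773 of all 18132 genes (4.26%). Among genes with a mean signal above background on both arrays, 2 of 18 members and 423 of 5043 genes were higher by 1.5-fold or more. At 2-fold these numbers were 1 of 18 and 52 of 5043.

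Signal bears on this comparison, since brighter genes had higher differences on these arrays. Set beside the 500 genes nearest in mean signal, which had medians from -0.14 to 0.16, 22 members lay above the median of their nearest genes and 14 below. On average over the members, 50.5% of the nearest genes had a difference above 0. The median of the members relative to these genes was 0.06. Among the 5043 genes whose mean signal was above background on both arrays, 3083 had a difference above 0 and the median was 0.10. The 18 members that passed the same limit did so on signal alone, and 14 of them had a difference above 0, with a median of 0.13. As a group the members thus lay close to genes of equal signal, while CHD7, SMARCA5 and CHD1 lay 1.07, 0.77 and 0.82 above the medians of theirs.

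**Figure D1:**
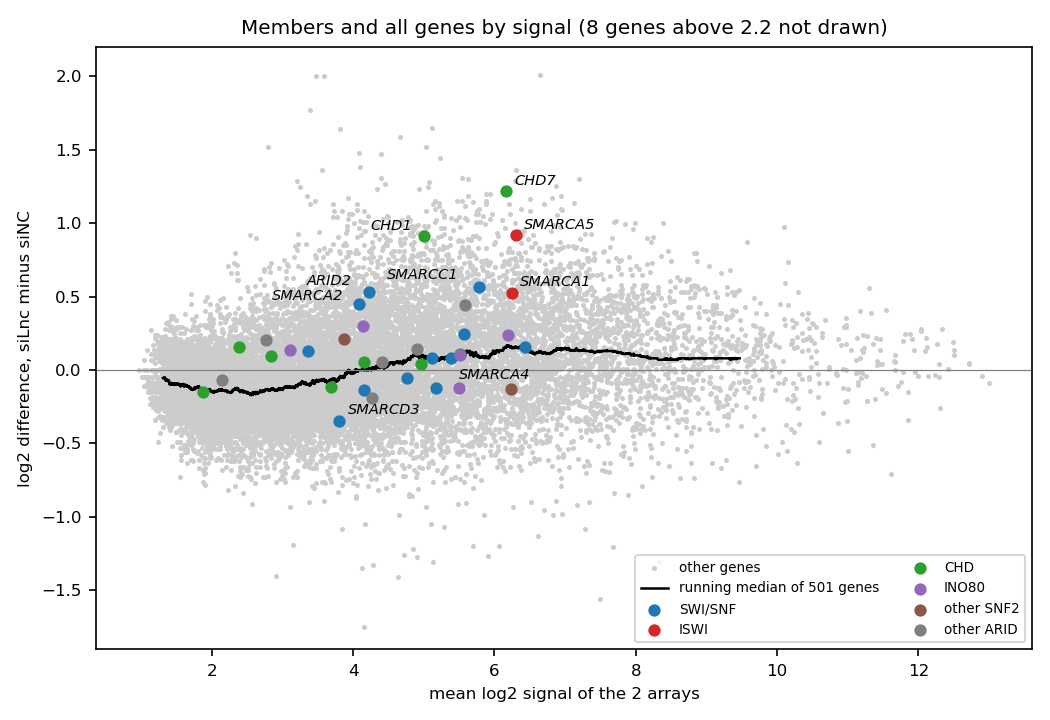
Log2 difference (siLnc minus siNC) of each gene against its mean log2 signal on the 2 arrays, with all genes in grey, the remodelling genes as points coloured by family and the running median of 501 other genes as a line; 8 genes above 2.2 lie outside the axis. CHD7 at 1.22, SMARCA5 at 0.92 and CHD1 at 0.91 stand above the other members, while SMARCD3 at -0.34 is the lowest.

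The probe sets give the same picture in finer detail. Of the 117 probe sets of the members, 68 were above 0, 39 below 0 and 10 had the same value on both arrays. Of all probe sets with 1 gene symbol, 8.97% had the same value on both arrays, and the shares above and below 0 were not counted. Among the member probe sets, 4 were at least 2-fold higher (1.53% of all probe sets with 1 gene symbol were), 3 of CHD7 and 1 of SMARCA5. None of them was at least 2-fold lower (0.187% of all). Above background on both arrays were 56 probe sets, which covered 29 of the 36 genes and had a median difference of 0.17. With only such probe sets, the median of gene values was 0.13 for the 29 members and 0.11 for 7737 genes. Among the 29 genes read by 2 or more probe sets, 9 had all of them above 0 and 4 had all of them below 0. Over all genes with 2 or more probe sets these shares were 19.6% and 25.1%.

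**Figure D2:**
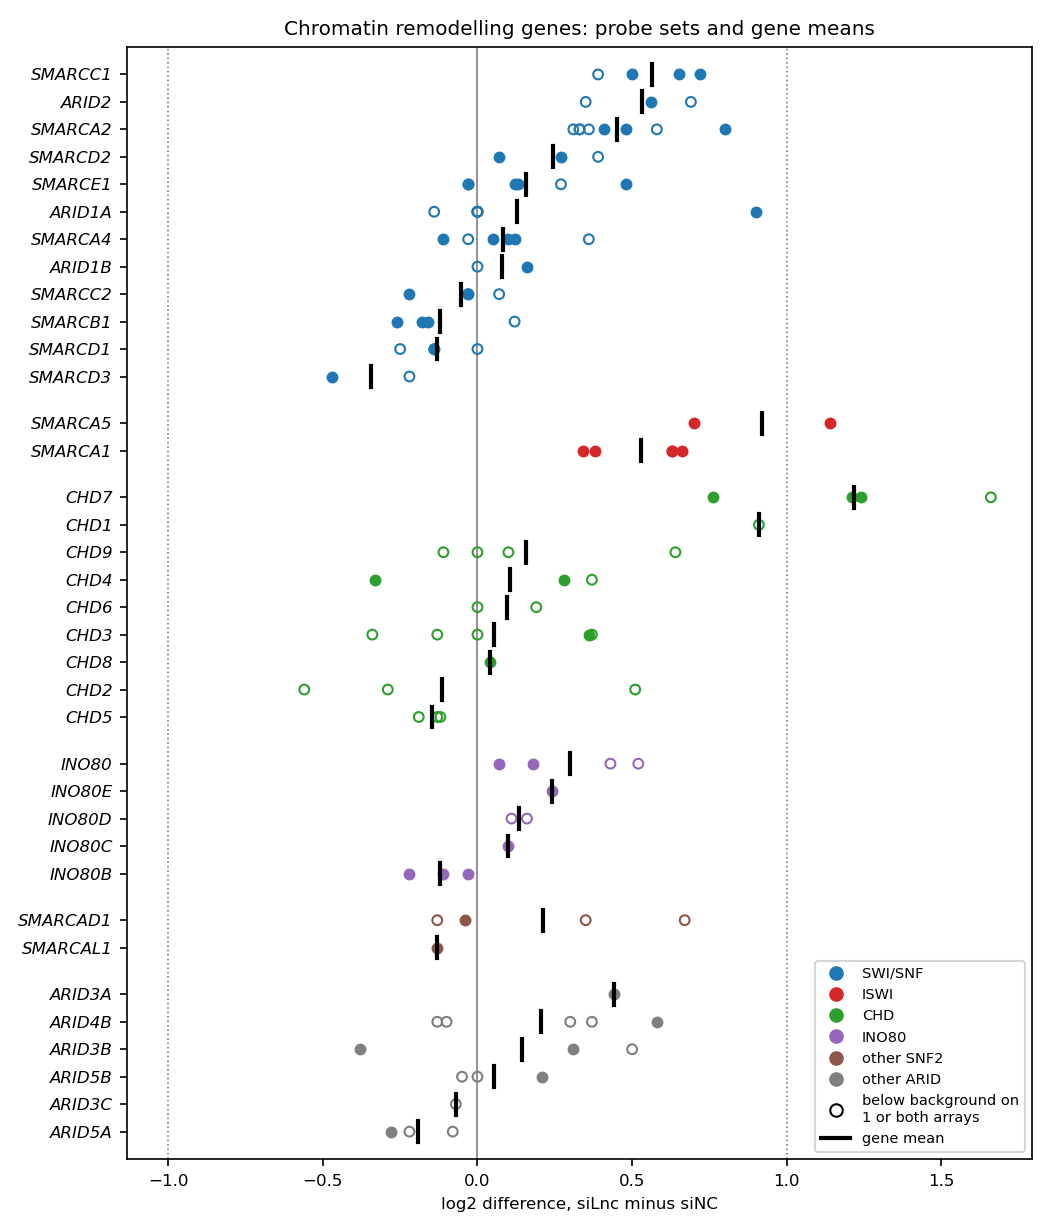
Log2 difference (siLnc minus siNC) of every probe set of the 36 remodelling genes, as 1 point each, with filled points above background on both arrays, open points not above it on 1 or both, a bar at the mean of each gene and dotted lines at 2-fold. All 4 CHD7 probe sets lie between 0.76 and 1.66, both SMARCA5 probe sets at 0.70 and 1.14, and both SMARCD3 probe sets at -0.47 and -0.22.

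The SWI/SNF family was represented by 12 genes, with a median difference of 0.10, and 8 of the 12 were above 0. Beside this and the later family counts, the share above 0 was 39.2% of all genes. Of the genes nearest in signal to the 36 members it was 50.5% on average. The SWI/SNF median was 0.04 after cyclic loess and 0.01 after quantile normalization. The motors of this family are SMARCA4 (BRG1) and SMARCA2 (BRM), of which a complex holds only 1. SMARCA4 had log2 signals of 5.34 in siNC and 5.42 in siLnc, a difference of 0.08 that was -0.02 after quantile normalization, and its 6 probe sets ranged from -0.11 to 0.36. SMARCA2 had 3.86 and 4.31, a difference of 0.45. All 8 probe sets of SMARCA2 were above 0, from 0.31 to 0.80. The 3 that were above background on both arrays had 5.90 and 6.70, 6.85 and 7.26, and 5.54 and 6.02. The contrast of SMARCA2 with SMARCA4 was 0.37 on the log2 scale, and the probe sets of the 2 genes overlapped through 1 dim probe set of SMARCA4 with 2.19 and 2.55. Among probe sets above background on both arrays, SMARCA4 ran from -0.11 to 0.12 and SMARCA2 from 0.41 to 0.80.

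The scaffold pair SMARCC1 (BAF155) and SMARCC2 (BAF170), around which the complex is assembled, had unlike differences on these arrays. SMARCC1 had log2 signals of 5.50 in siNC and 6.06 in siLnc, a difference of 0.56, and of the 500 genes nearest in signal 438 had a lower difference. Its 4 probe sets had differences of 0.39, 0.50, 0.72 and 0.65, and the brightest had 6.74 and 7.39. SMARCC2 had 4.79 and 4.74, a difference of -0.05, with probe sets from -0.22 to 0.07. The probe sets of the pair did not overlap, and the contrast was 0.62. How often the probe sets of other gene pairs overlap was not counted. The differences of the 500 nearest genes had a robust SD of 0.37 for SMARCC1 and 0.36 for SMARCC2.

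The other core subunits gave small differences of both signs. SMARCD3 (BAF60C), known from heart and muscle development, had 3.98 in siNC and 3.63 in siLnc. That was the lowest difference of all members, -0.34, and 76 of its 500 nearest genes were lower still. Its brighter probe set had 5.80 and 5.33, and its dimmer one had 2.15 and 1.93. Its relatives SMARCD1 and SMARCD2 had differences of -0.13 and 0.24, with all 3 probe sets of SMARCD2 above 0 and none of the 4 of SMARCD1. SMARCB1 (SNF5), the tumour suppressor lost in rhabdoid tumours, had 5.24 and 5.12, a difference of -0.12, with the 3 probe sets above background at -0.26, -0.18 and -0.16. SMARCE1 (BAF57), a subunit with an HMG box that binds DNA, had 6.36 and 6.51 and a difference of 0.16, with probe sets from -0.03 to 0.48. Over the 7 core subunits the median was -0.05.

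The subunits with an AT-rich interaction domain (ARID) decide which form of SWI/SNF is made. ARID2, the subunit of PBAF complexes, had 3.96 in siNC and 4.49 in siLnc, a difference of 0.53, and its 3 probe sets had 0.56, 0.35 and 0.69. Only the first of these was above background, with 6.08 and 6.64. ARID1A, the subunit of canonical BAF complexes, had 3.30 and 3.42, a mean difference of 0.13 over probe sets that did not tell the same story. Its 1 probe set above background had 5.53 and 6.43, a difference of 0.90, while 4 dim probe sets were at 0.00 and the remaining dim one at -0.14. ARID1B, the alternative to ARID1A, had 5.08 and 5.16, a difference of 0.08 that was -0.02 after quantile normalization. The contrast of ARID1A with ARID1B was 0.05 over all probe sets and 0.74 between the brightest probe set of each.

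**Figure D3:**
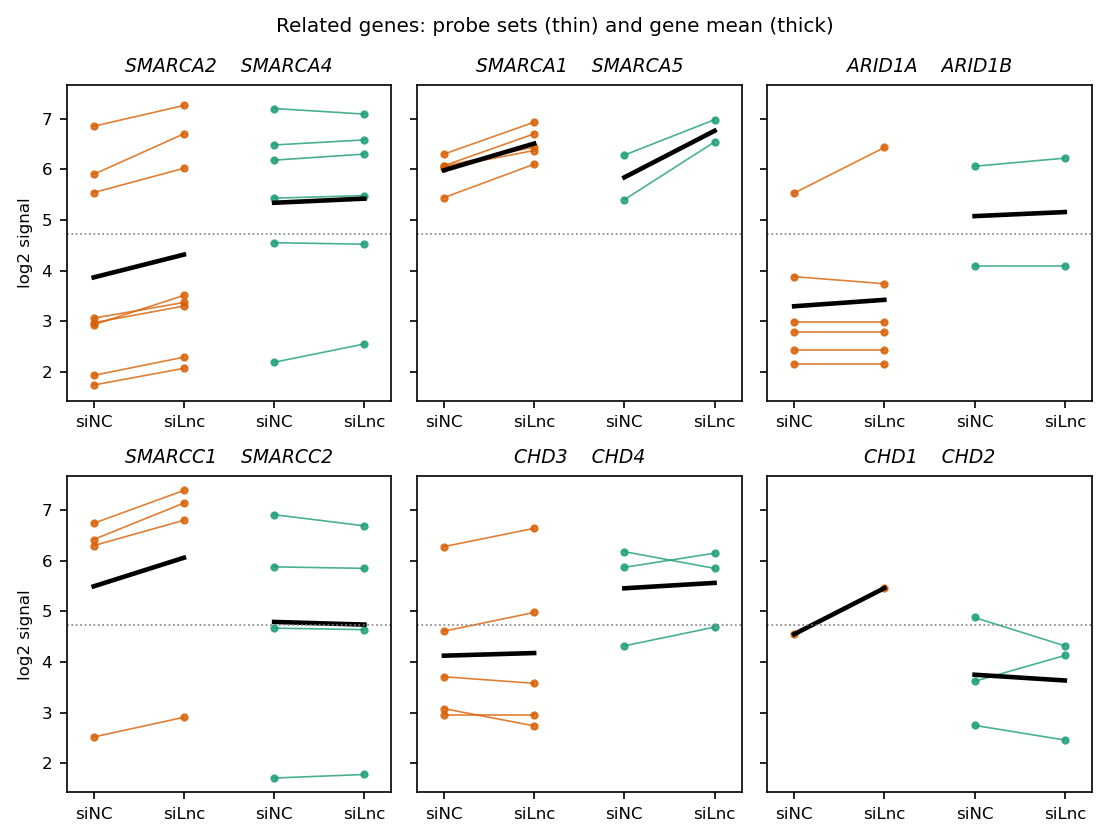
Log2 signal of each probe set on the siNC and siLnc arrays, joined by a thin line, with the gene mean as a thick line and the background as a dotted one, for the 6 pairs of related genes SMARCA2 and SMARCA4, SMARCA1 and SMARCA5, ARID1A and ARID1B, SMARCC1 and SMARCC2, CHD3 and CHD4, and CHD1 and CHD2. All 4 probe sets of SMARCC1 lie higher in siLnc, by 0.39 to 0.72, while the differences of SMARCC2 stay within -0.22 to 0.07, and the lines of CHD3 and CHD4 run in both directions.

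Both ISWI motors, which space nucleosomes in regular arrays, were above 0, and their median of 0.72 was the highest of the families. SMARCA5 (SNF2H), the ATPase of the ACF, CHRAC, WICH and RSF complexes, had 5.84 in siNC and 6.76 in siLnc, a difference of 0.92 or 1.89-fold. Its 2 probe sets, both above background, had 5.40 and 6.54, and 6.28 and 6.98. Of the 500 genes nearest in signal, 489 had a lower difference. SMARCA1 (SNF2L), the ATPase of NURF, had 5.98 and 6.51, a difference of 0.53. Its 5 probe sets, all above background, ranged from 0.34 to 0.66 and so lay below both probe sets of SMARCA5, and 426 of its nearest genes had a lower difference. The contrast of SMARCA1 with SMARCA5 was -0.39 over all probe sets and -0.07 between the brightest probe set of each.

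The 9 CHD genes, whose proteins join a pair of chromodomains to the ATPase, held the highest member, CHD7, and CHD1, also past 1.5-fold. The other 7 CHD genes had differences from -0.15 to 0.16, and over all 9 the median was 0.10, with 7 above 0. CHD7, the gene mutated in CHARGE syndrome, had 5.56 in siNC and 6.77 in siLnc, a difference of 1.22 or 2.33-fold. Its 4 probe sets had 2.61 and 4.27, 7.50 and 8.74, 6.44 and 7.65, and 5.67 and 6.43. All were higher in siLnc, the first from below background on both arrays and the other 3 from above it. Of the 500 genes nearest in signal, 497 had a lower difference, and CHD7 lay 1.07 above their median. Its relatives of the same subfamily, CHD6, CHD8 and CHD9, had differences of 0.10, 0.04 and 0.16, that of CHD8 being -0.03 after cyclic loess and -0.10 after quantile normalization. CHD6 and CHD9 had no probe set above background on both arrays, although the brightest of CHD9 had 3.43 and 4.07.

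CHD1, which binds methylated lysine 4 of histone H3 and acts on transcribed genes, was read by 1 probe set, with 4.55 in siNC and 5.46 in siLnc. Its difference was 0.91, from below background to above it, and 487 of its 500 nearest genes were lower. CHD2, its closest relative, had 3.75 and 3.64, a difference of -0.11 over probe sets at 0.51, -0.56 and -0.29, none of them above background on both arrays. The contrast of CHD1 with CHD2 was 1.02. The NuRD motors CHD3 and CHD4 had differences of 0.05 and 0.11, the latter -0.03 after quantile normalization. CHD4 had 4.32 and 4.69, 5.87 and 6.15, and 6.18 and 5.85 in its 3 probe sets, which did not share a direction. CHD3 was likewise split, from -0.34 to 0.37, with the brightest of its 5 probe sets at 6.28 and 6.64. CHD5, a further NuRD motor known from brain and testis, was below background on both arrays, with 1.94 and 1.80.

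Among the 5 INO80 genes the median was 0.14 and 4 were above 0. INO80, the motor of the complex that exchanges and slides nucleosomes at promoters and at sites of DNA damage, had 3.99 in siNC and 4.29 in siLnc. Its difference was 0.30, and its 4 probe sets ran from 0.07 to 0.52, the larger ones in the 2 probe sets below background. Of the accessory subunits, INO80E had 6.07 and 6.31 (a difference of 0.24) and INO80D 3.04 and 3.17 (0.14). INO80C had 5.46 and 5.56, a difference of 0.10 that was -0.01 after cyclic loess and -0.05 after quantile normalization. INO80B had 5.56 and 5.44, a difference of -0.12, with all 3 probe sets below 0. A probe set annotated to WBP1 and to the INO80B-WBP1 readthrough transcript, and not to INO80B itself, had 7.33 and 6.86. It carried several symbols and was not counted among the members.

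SMARCAD1 and SMARCAL1 are SNF2 ATPases outside the 4 families. SMARCAD1, which acts in DNA end resection and in keeping heterochromatin through replication, had 3.76 in siNC and 3.97 in siLnc. Its difference of 0.21 came from probe sets between -0.13 and 0.67, and the 1 above background had 5.82 and 5.78. SMARCAL1, an annealing helicase that remodels stalled replication forks, had 6.30 and 6.17 in its 1 probe set, a difference of -0.13.

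The 6 other ARID genes encode DNA-binding transcription factors and corepressor subunits that share the domain but are not part of a remodeller motor. Their median was 0.10, with 4 of 6 above 0. ARID3A, a regulator of B cell genes, was the highest, with 5.37 in siNC and 5.81 in siLnc. ARID5A, which binds and stabilises inflammatory mRNAs, was the lowest, with 4.37 and 4.17, and all 3 of its probe sets were below 0. ARID3B had a difference of 0.14 over probe sets from -0.38 to 0.50. ARID4B, a subunit of the SIN3 corepressor, had 2.67 and 2.87, and its only counted probe set above background had 5.05 and 5.63. A probe set annotated to both RBM34 and ARID4B, with 5.11 and 5.41, was not counted. ARID5B and ARID3C had differences of 0.05 and -0.07, and that of ARID3C was 0.04 after cyclic loess and 0.03 after quantile normalization. No probe set was named for ARID4A.

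Split by role, the 16 ATPases had a median of 0.13 with 13 above 0, and the 20 genes that are not ATPases a median of 0.11 with 13 above 0. The share above 0 was 39.2% of all genes, and 50.5% on average of the genes nearest in signal to the 36 members. The 3 members at least 1.5-fold higher, CHD7, SMARCA5 and CHD1, were all ATPases, SMARCA5 of the ISWI family and the others of separate CHD subfamilies. These 3 were picked by value, and a difference between the roles was not tested.

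Partner genes that carry other names were listed by complex. They were subunits that share complexes with the members, genes of the SRCAP and EP400 complexes, and 13 further SNF2 ATPases. Of the 78 partner genes, 45 (57.7%) had a difference above 0, against 39.2% of all genes. By 2-fold or more, 2 were higher (2.56%, against 0.651% of all genes) and 0 were lower. The 2 higher ones, HELLS and RAD54L, were both among the further SNF2 ATPases. Their median was 0.14. Among the 500 genes nearest in signal to each partner, 50.8% on average had a difference above 0. Relative to these genes the partners had a median of 0.06, with 47 above and 31 below. The partners of INO80 were above 0 in 8 of 9 genes, against 58.8% of genes of the same signal. Their median was 0.27, or 0.17 relative to those genes. RUVBL1, an AAA ATPase of the INO80 complex, had 7.18 in siNC and 7.84 in siLnc. Partners in the related SRCAP and EP400 complexes, which deposit the histone variant H2A.Z, were above 0 in 13 of 17 genes. Of genes of the same signal, 54.5% were. The median of these partners was 0.19, or 0.095 relative to genes of the same signal. Partners of ISWI motors were above 0 in 7 of 11 genes, against 53.4% of genes of the same signal. The median of the ISWI partners was 0.15, or 0.04 relative to those genes, with 6 above and 5 below. BAZ1A (ACF1), which pairs with SMARCA5, had 3.51 and 4.28, a difference of 0.77, the highest of that group, with 1 of its 4 probe sets at 0.00 and the others from 0.86 to 1.32. Of these, 1 was above background on both arrays, with 4.97 and 5.87.

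Partners in NuRD were above 0 in 2 of 10 genes, against 39.2% of all genes and 57.7% of genes of the same signal, with a median of -0.05. RBBP4 and RBBP7, histone chaperones of NuRD that were listed with the ISWI partners, had differences of 0.13 and 0.39. With them, 4 of 12 were above 0. The difference between complexes was not tested. MTA1, a subunit linked to metastasis, had 6.46 and 5.99, and its 3 probe sets had -0.42, -0.57 and -0.43. Partners of SWI/SNF had a median of -0.04, with 7 of 18 above 0 (38.9%, close to the 39.2% of all genes), among them ACTL6A (BAF53A) with 8.22 and 8.76. Of these partners, BCL11B had the lowest difference, with 2.85 and 2.22, below background on both arrays.

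Further SNF2 ATPases that match none of the symbols had differences from -0.75 to 1.47, many of them from signals below background. HELLS, a remodeller needed for DNA methylation at repeats, had 3.65 in siNC and 5.13 in siLnc, a difference of 1.47, with probe sets at 1.43, 1.68 and 1.31. Only the last of these was above background on both arrays. RAD54L and RAD54B, which act in homologous recombination, had 4.18 and 5.20, and 3.60 and 4.57, in 1 probe set each. That of RAD54L was below background in siNC only, and that of RAD54B on both arrays. CHD1L, a remodeller recruited by poly(ADP-ribose), had 4.56 and 5.34, with its 2 probe sets apart at 0.30, the 1 above background, and 1.27. At the low end, ZRANB3 had 3.33 and 2.59 and TTF2, which releases RNA polymerase II from DNA, had 6.32 and 5.77. Of these 13 genes 8 were above 0 (61.5%), against 39.2% of all genes and 43.3% of genes of the same signal. The median was 0.20, or 0.33 relative to genes of the same signal, with 9 above and 4 below.

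Grouped by the subunits that define a form of SWI/SNF, a grouping chosen after the values were seen, PBAF had the highest median. That ranking was not tested. ARID2, PBRM1 (0.39), PHF10 (0.40) and BRD7 (-0.01) had a median of 0.39 with 3 of 4 above 0. ARID1A, ARID1B, DPF1, DPF2 and DPF3 of canonical BAF had a median of 0.08 with 3 of 5 above 0. BRD9 (0.19), BICRA (-0.08) and BICRAL (-0.23) of non-canonical BAF had a median of -0.08 with 1 of 3 above 0. Of all genes, 39.2% were above 0. DPF1, DPF3 and BICRAL had no probe set above background on both arrays. ARID1A entered at 0.13, although its 1 probe set above background was at 0.90. PBRM1, the bromodomain subunit often mutated in kidney cancer, had 4 probe sets, of which none was above background in siNC and the brightest pair had 4.68 and 5.11, and 4.64 and 5.14. PHF10, a subunit that binds modified histone H3, had 5.09 and 5.48.

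**Figure D4:**
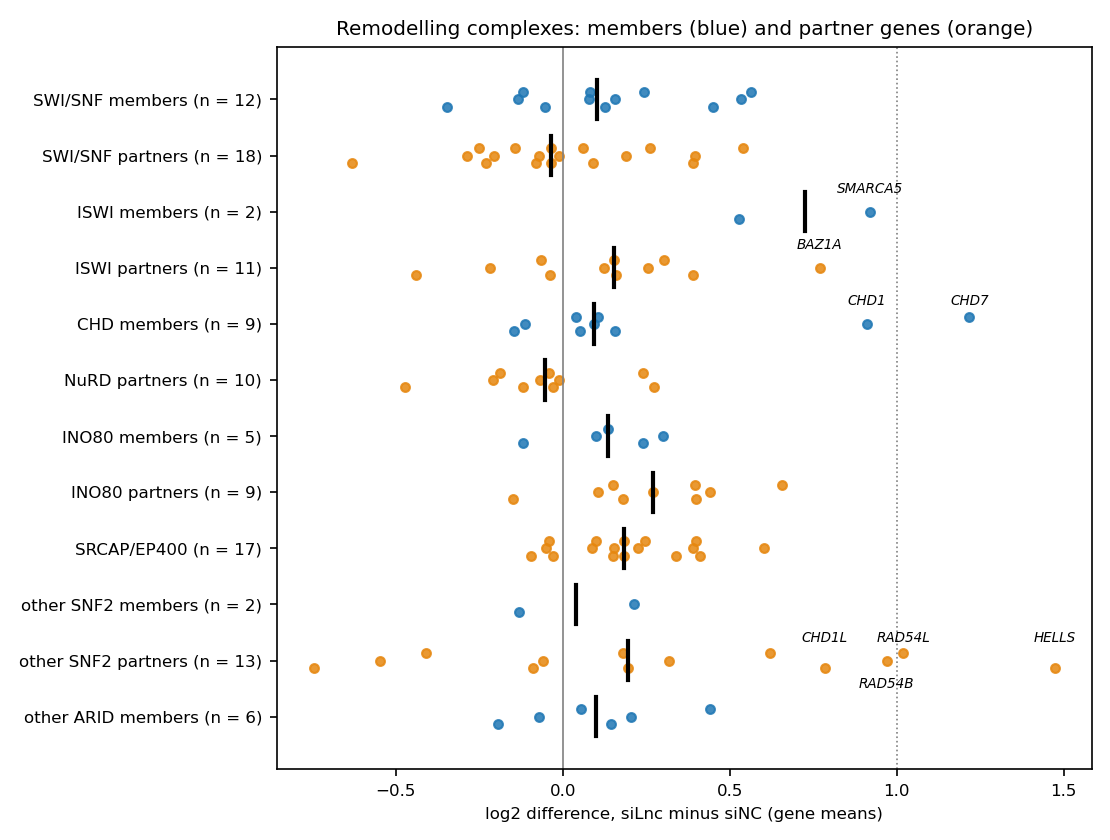
Log2 difference (siLnc minus siNC) of each gene by complex, with members in blue, listed partner genes in orange, small vertical offsets to separate points, a bar at the median of each group and a dotted line at 2-fold. INO80 partners (median 0.27) lie mostly above 0 and NuRD partners (median -0.05) mostly below it.

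Promoter sequence was read for SMARCA5 and CHD1, which have the largest differences among the 28 members with a window in the RefSeq table (build GRCh38.p14). CHD7, the member with the largest difference, has no window there. The 2 sequences are shown to set the members next to it in difference beside common promoter motifs. Each is the 250 bases before the annotated start, 5' to 3' on the strand of the gene, at chr4:143513452-143513701 on the plus strand for SMARCA5 and at chr5:98929008-98929257 on the minus strand for CHD1. Capitals mark matches of the motifs searched.
SMARCA5: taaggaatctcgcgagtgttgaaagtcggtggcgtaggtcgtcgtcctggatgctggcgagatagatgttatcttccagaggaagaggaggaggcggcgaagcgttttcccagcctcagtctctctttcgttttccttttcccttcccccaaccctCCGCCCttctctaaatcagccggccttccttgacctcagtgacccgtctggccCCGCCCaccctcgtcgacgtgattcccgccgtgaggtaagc
CHD1: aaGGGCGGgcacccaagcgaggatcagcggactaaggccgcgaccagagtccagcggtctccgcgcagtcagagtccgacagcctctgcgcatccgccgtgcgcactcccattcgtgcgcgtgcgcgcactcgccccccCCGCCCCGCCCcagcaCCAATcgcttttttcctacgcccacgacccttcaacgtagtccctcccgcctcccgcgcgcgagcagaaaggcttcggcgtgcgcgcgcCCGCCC
The motifs, searched on both strands, were GGGCGG (the GC box bound by SP1), the CCAAT box, the TATA box TATAAA, and the E2F-type site as TTTCCCGC or TTTGGCGC or TTTCGCGC. SMARCA5 had GC boxes that begin at -94 and -41 from the start and none of the other motifs, and 58% of its bases were G or C. CHD1 had 4 GC boxes, at -248, -111, -106 and -6, of which the middle pair share a base, and a CCAAT box at -95, with 70.8% G or C. Over the 46 windows of the members the GC box was found in 50% (42.6% of all 35116 windows), the CCAAT box in 21.7% (32%), the TATA box in 4.35% (10.7%) and the E2F-type site in 0 (2.32%). A match is a description of letters only.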

How the data were processed

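RNA recovered with an anti-QKI antibody was hybridised to 1 PrimeView array per group, siNC and siLnc, taken from the sample labels. Each probe set has 1 log2 signal per array in the table the authors deposited, a scale read off its values, which ran from 0.83 to 13.28. GCOS is named in the submitters' processing notes. The sources used here do not give how background was corrected, probes summarised or arrays normalised. Of 49371 probe sets, 79 controls were left out, and 44988 with 1 gene symbol in the platform annotation entered gene values. A further 1832 had several symbols and 2472 none, and were left out. RefSeq gene identifiers changed 0 of 36 member symbols.

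Genes were described by the mean difference over their probe sets, beside all genes and the 500 nearest in mean signal. No test was possible. Named genes were members past 2-fold, all ATPases, the highest and lowest of each family, both genes of each pair, and partners with large differences, up to 4 in each direction. Other members and partners were named after their values were seen. The members and lists were chosen with earlier results of these data known.

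Alternatives were cyclic loess, quantile normalization, median centring, the brightest or median probe set, filters on dim probe sets, leaving out probe sets that may bind several transcripts, 200 or 1000 nearest genes, and thresholds of 1.5-fold and 3-fold. A median was taken as moved when it fell outside the 95% binomial order-statistic interval of the deposited median. For lists of 2 or 5 genes the interval is the full range and falls short of 95%. A single gene was taken as moved when it changed by more than the robust SD of its 500 nearest genes. For pairs this limit was multiplied by the square root of 2. A count was taken as moved when it differed from the deposited count by more than 1.5-fold. Scripts were tested on simulated data. R 4.3.3 with limma 3.58.1 and Python 3.11.15 with numpy 2.4.6, pandas 2.3.3, scipy 1.17.1 and matplotlib 3.10.9 were used.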

Additional observations from a re-analysis of the deposited data

How the results depend on the processing

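No paired analysis was possible because each group had 1 array. By the rules above, 139 summary values under an alternative were labelled unchanged and 12 moved. Counts of higher members and higher probe sets remade at 1.5-fold and 3-fold are among the latter. These differ from the 2-fold counts through the threshold itself. CHD7, the only member past 2-fold, did not change sign. Of the values of single members under an alternative, 266 were labelled unchanged and 10 moved, and 1 newly reached 2-fold. The limit for a median is a range between genes of a list. It spans all genes for the 2 ISWI, the 2 other SNF2, the 5 INO80 and the 6 other ARID genes. Staying within it does not show that a median kept its size. The SWI/SNF median, 0.10 as deposited and 0.01 after quantile normalization, was labelled unchanged. Against 0.12 as deposited, quantile normalization gave the members a median of 0.042. Without probe sets that may bind several transcripts, 2 members were at least 2-fold higher, CHD7 and SMARCA5, the latter with 1.14. At 1.5-fold 3 members and 17 of their probe sets were higher, and at 3-fold 0 members and 1 probe set. Of the partners, 1 was at least 2-fold higher after cyclic loess, after quantile normalization, and among probe sets above background on both arrays, where their median was 0.21. Between brightest probe sets the contrast was 0.74 for ARID1A with ARID1B and 0.69 for CHD3 with CHD4, and that of SMARCA1 with SMARCA5 was -0.07. Cyclic loess and quantile normalization gave medians of 0.08 and 0.02 for the CHD genes, 0.11 and 0.07 for the INO80 genes, 0.07 and 0.04 for the other ARID genes and -0.02 and -0.06 for the other SNF2 genes. The cause of these changes was not tested. CHD7 ranged from 1.07 to 1.25 over the alternatives run, SMARCA5 from 0.70 to 1.14 and CHD1 from 0.80 to 0.94. Below 2-fold, 9 members changed sign under at least 1 alternative, 6 of them under a scaling. The median difference of all genes was -0.06 as deposited, -0.02 after cyclic loess, -0.04 after quantile normalization and -0.03 after median centring. Signal limits the rest, since 61 of the 117 member probe sets were not above background on both arrays.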
